A study of Oryctolagus cuniculus with 16 samples.

Results

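The basilar terminus (BT) is the fork where the basilar artery (BA) divides at the base of the brain, and its intima is the inner layer of the arterial wall, a sheet of endothelial cells lying on the smooth muscle of the media. Endothelial cells sense the drag of flowing blood, the wall shear stress (WSS), and pass signals to the smooth muscle beneath. They release vasodilators such as nitric oxide, growth factors, proteases and their inhibitors, and they set the balance of clotting at the vessel surface. When both common carotid arteries are tied, the basilar artery takes over part of the supply of the brain, and flow and WSS at the terminus rise.

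The libraries came from female New Zealand white rabbits. The ligated group was the BT intima of 2 rabbits (rabbits 5 and 6) taken 24 h after bilateral common carotid ligation, labelled as high flow. The sham group was the BT intima of 2 rabbits (rabbits 3 and 4) taken 24 h after a sham operation, labelled as normal flow. These 4 libraries, of 16 in the series, were chosen by their labels alone, and no measured value entered the choice. Each library held strips about 10 µm wide cut by laser from frozen sections 8 µm thick, with about 10 sections combined, and its RNA was amplified before sequencing. The ligated and sham libraries came from different animals, so every comparison below rests on n = 2 rabbits per group, and differences between animals are part of its error. The question was how expression in the lining of the terminus differed after a day of raised flow.

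Reads on named genes numbered 12590707 and 6694436 in the sham libraries of rabbits 3 and 4, and 10092525 and 11462861 in the ligated libraries of rabbits 5 and 6. All values below are CPM, a gene's counts set against the library total after scaling by the trimmed mean of M-values (TMM). A count of 0 allows up to 3 counts, which is 0.238 to 0.448 CPM before that scaling. Intervals and limits from counts cover counting error only, since amplified reads are not independent molecules. At least 1 count was found for 10408 and 9364 genes in the sham libraries and for 8044 and 8919 genes in the ligated libraries. The study's listed RNA concentrations fell in the order sham rabbit 3, ligated rabbit 6, sham rabbit 4, ligated rabbit 5. The part of RNA amount in the counts of 0 was not tested.

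The label was checked against cell type markers. The endothelial markers PECAM1, CDH5 and VWF had counts in all 4 libraries. The summed endothelial level was 1463 and 6416 CPM in the sham libraries of rabbits 3 and 4, and 4003 and 4623 CPM in the ligated libraries, so the sham library of rabbit 3 had the lowest endothelial level of the 4. With all 8 BT libraries scaled together, the same sum was 1339 to 5966 CPM in the intima and 724 to 1966 CPM in the media, and it was higher in the intima than in the media of each rabbit. Smooth muscle markers summed to 18035 to 73689 CPM in the intima, so the strips also held smooth muscle RNA. With all 8 BT libraries scaled together, that sum was 28427, 31982, 16524 and 68524 CPM in the intima of rabbits 3, 4, 5 and 6. In their media it was 139827, 110228, 107177 and 100653 CPM. The part of medial RNA in the intimal values was not tested.

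The 2 sham libraries differed in the summed levels of markers of other cell types. Markers of fibroblasts and of the leptomeninges, the thin membranes over the outside of the brain and its vessels, summed to 32286 CPM in sham rabbit 3 and 10032 CPM in sham rabbit 4, against 1736 and 2961 CPM in the ligated libraries. The list of choroid plexus and ependymal markers, named for the cells that make and line the fluid spaces of the brain, summed to 1072 CPM in sham rabbit 3 and to 8.03 to 24.5 CPM in the other libraries. In sham rabbit 3 that sum was mostly KCNJ13 at 937 CPM and TTR at 110.4 CPM, while the defining markers OTX2 and KL had no count there and FOXJ1 and FOLR1 lay below the filter. Erythroid markers, mostly from HBB2, a globin gene whose counts are uncertain because near-identical copies share its reads, were lowest in sham rabbit 3 at 2094 CPM and highest in sham rabbit 4 at 141874 CPM. In such bulk samples, fewer cells of a type and less RNA per cell cannot be told apart.

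**Figure D1:**
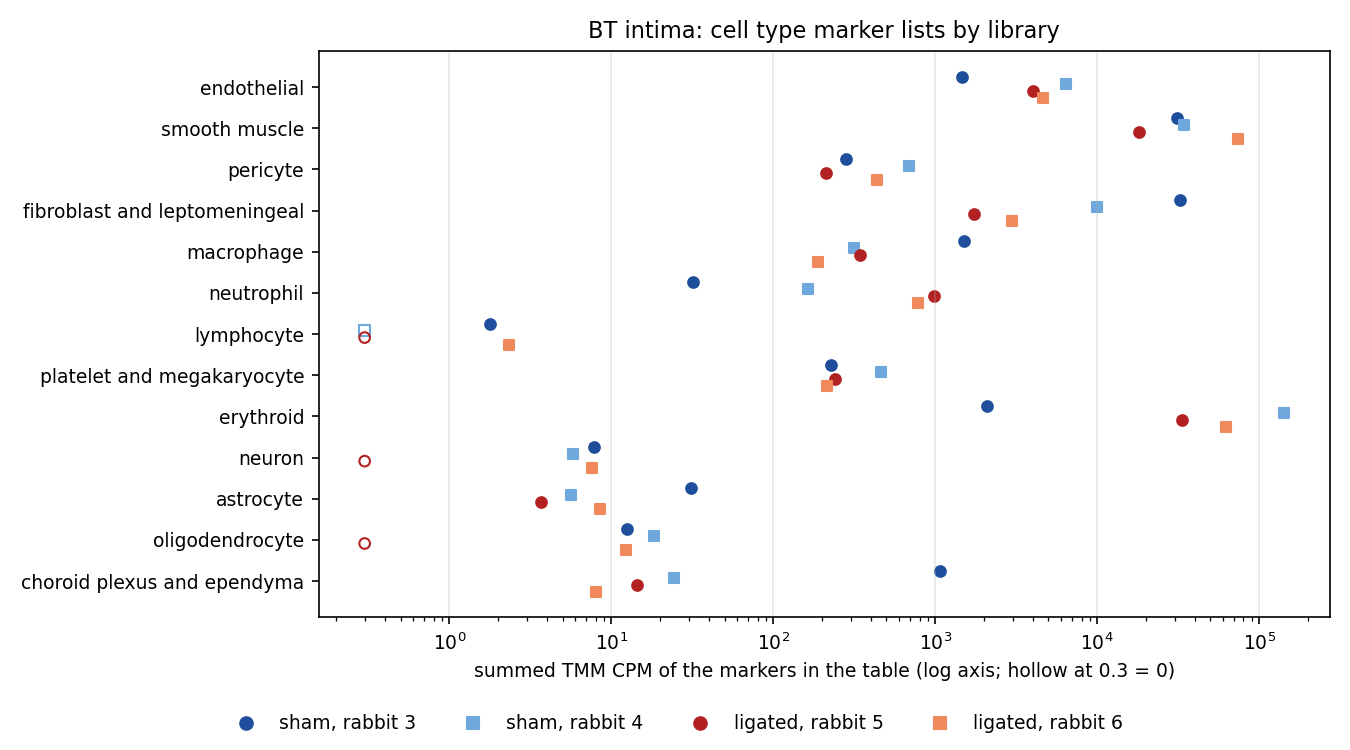
Summed TMM CPM (log axis) of each cell type marker list in the 4 BT intima libraries, with sham in blue, ligated in red, and hollow symbols where no marker had a count. Sham rabbit 3 stands highest for fibroblast and leptomeningeal, macrophage and choroid plexus markers and lowest for endothelial and erythroid markers.

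Genes with a mean above 1 CPM in at least 1 group numbered 9273. The lowest admitted was ELMOD1, at a mean of 1.01 CPM in its higher group, and the highest left out was AMIGO2, at 0.997 CPM. No gene passed an adjusted p (Benjamini-Hochberg) under 0.05 in edgeR's quasi-likelihood test, and the smallest adjusted p was 0.247. At an unadjusted p under 0.05 the same test gave 399 genes higher (4.3% of those tested) and 680 lower (7.33%) in the ligated libraries. Other tests on the same counts called more: edgeR's exact test called 96 genes higher (1.04%) and 199 lower (2.15%), and DESeq2 called 193 higher (2.08%) and 420 lower (4.53%). Without sham rabbit 4 the quasi-likelihood test called 24 genes higher and 92 lower, and without sham rabbit 3 it called 1 higher and 1 lower. In both of these fits the sham group is 1 library, which is assumed to vary as the ligated pair does.

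The description therefore starts from where the values lie. Both ligated values were above both sham values for 1895 genes (20.4% of those tested) and below both for 2368 genes (25.5%), or 46% in all. Taken against 1 sham library at a time, both ligated values were below sham rabbit 3 for 40.9% of genes and below sham rabbit 4 for 38.7%. These are the shares against which every count of non-overlapping members below is to be read. Among the genes without overlap, an unadjusted p under 0.05 was reached by 395 higher genes (4.26% of those tested) and by 645 lower genes (6.96%). The lower genes were more often at or near 0. Both ligated libraries had no count for 410 of the 2368 lower genes, and both sham libraries had none for 24 of the 1895 higher genes. In what follows, "higher" and "lower" say where the 2 ligated values lay against the 2 sham values, log2 fold changes and their standard errors (SE) are ligated over sham from the quasi-likelihood fit, and adjusted p is over all genes tested in edgeR's quasi-likelihood test. The 20 genes of smallest p described first, 10 on each side, all had the adjusted p of 0.247. All 20 had an adjusted p under 0.05 in edgeR's exact test and in DESeq2, which use the same counts. With the sham group reduced to 1 library, under the assumption just given, ANKRD1 was the only one of them under 0.05 without sham rabbit 3, and 6 of the higher and 9 of the lower ones were without sham rabbit 4. Where both libraries of a group had no count, a bound on the fold against 3 counts in each of them is given in place of the fitted value. That bound takes the mean of the other group. Where 1 library of that group is far higher, the bound rests mostly on it and would be smaller against the other library alone.

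The leading higher genes included parts of a hydrogen peroxide generator. DUOX1 and DUOX2 are membrane oxidases that make hydrogen peroxide, and DUOXA1 and DUOXA2 are the partners that carry them to the cell surface. DUOXA2 had no count in either sham library and 77.4 and 66.9 CPM in the ligated libraries, at least 205-fold higher. DUOXA1 likewise had no sham count and 54.9 and 49.6 CPM after ligation, at least 149-fold higher. The oxidases themselves lay at lower values, with groups that again did not overlap. DUOX1 was at 0.373 and 1.6 CPM in sham and 13.7 and 17.1 CPM in ligated rabbits, and DUOX2 was at 0 in both sham libraries and 11.4 and 1.7 CPM in the ligated ones. DUOX1, DUOX2 and SRXN1 were picked after its values were seen. DUOXA1 and DUOX1 overlap each other in the RefSeq mOryCun1.1 annotation and the library kit does not mark strand, so reads from the shared stretch cannot be told apart. Of the 18 tested genes of the hydrogen peroxide and redox list, 6 were higher and 3 lower. The higher ones also included SRXN1, which restores oxidized peroxiredoxins, at 23.7 and 59 CPM in sham and 188 and 219.9 CPM in ligated libraries. SELENOP, a secreted selenium carrier, was among the lower ones at 1210.4 and 656 CPM against 100.2 and 171 CPM (log2 fold change -2.78 ± 0.52 SE, adjusted p = 0.247).

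ANKRD1, a stretch-responsive transcription cofactor and a common readout of YAP activity, had the largest ratio of the 8 leading higher genes that had counts in both groups. Its values were 1.34 and 6.56 CPM in sham rabbits 3 and 4 and 1039 and 932 CPM in ligated rabbits 5 and 6, a 249-fold ratio of means (log2 fold change 8.01 ± 0.93 SE). Not all YAP targets lay on that side. CYR61, the matricellular product CCN1, was lower, at 597 and 745 CPM in sham and 124 and 36.6 CPM in ligated libraries (adjusted p = 0.265). Of the 16 tested YAP and serum response factor targets, 6 were higher and 1, CYR61, was lower (5 and 2 with RLE scaling or library size alone), and the list's median log2 fold change was 0.34 against -0.13 over all genes tested.

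Extracellular proteases and their inhibitors were the next group among the leading higher genes. TIMP1, the secreted inhibitor of matrix metalloproteinases, was at 723 and 446 CPM in the sham libraries and 19318 and 8566 CPM in the ligated ones (log2 fold change 4.58 ± 0.67 SE). ADAMTS9, a metalloproteinase that cleaves the proteoglycans aggrecan and versican, was at 10.7 and 7.36 CPM against 157 and 159.7 CPM, and both of its replicate pairs were close (4.13 ± 0.50 SE). ADAMTS6, its relative, was at 9.76 and 16.6 CPM against 82.4 and 87.4 CPM (adjusted p = 0.265). The family was divided. Of its 28 tested members 7 were higher and 4 were lower (25% and 14.3%, against 20.4% and 25.5% of all genes), and the list's median log2 fold change of -0.40 became 0.70 without sham rabbit 3. The gelatinase MMP2 was among the lower ones, at 78.2 and 36.8 CPM against 11.2 and 21 CPM. TIMP3, another tissue inhibitor, overlapped between groups at 1341 and 1653 CPM in sham and 1413 and 1579.7 CPM in ligated libraries. MMP2 and TIMP3 were picked after their values were seen. TIMP1 lies inside the span of SYN1 in mOryCun1.1, and reads from the 2 genes cannot be told apart by strand.

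The remaining leading genes on the higher side were membrane and cytoplasmic proteins, and their replicates were not equally close. TM4SF18, a tetraspanin-like membrane protein, was at 17.3 and 41 CPM in sham and 1588 and 890.0 CPM in ligated libraries (42.5-fold). ST6GALNAC4, a sialyltransferase of the Golgi, was at 13.4 and 13.4 CPM against 149 and 207 CPM (13.2-fold). For each of these genes the ligated values exceeded the sham values by more than the spread within either pair. That follows largely from their choice by small p and lack of overlap on the same values. MALL, a membrane raft protein, was at 18.4 and 39 CPM against 533 and 318 CPM. DBNDD2, a dysbindin-domain protein, was at 44.7 and 55.2 CPM against 403 and 325 CPM (7.29-fold), the smallest ratio of the 10.

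**Figure D2:**
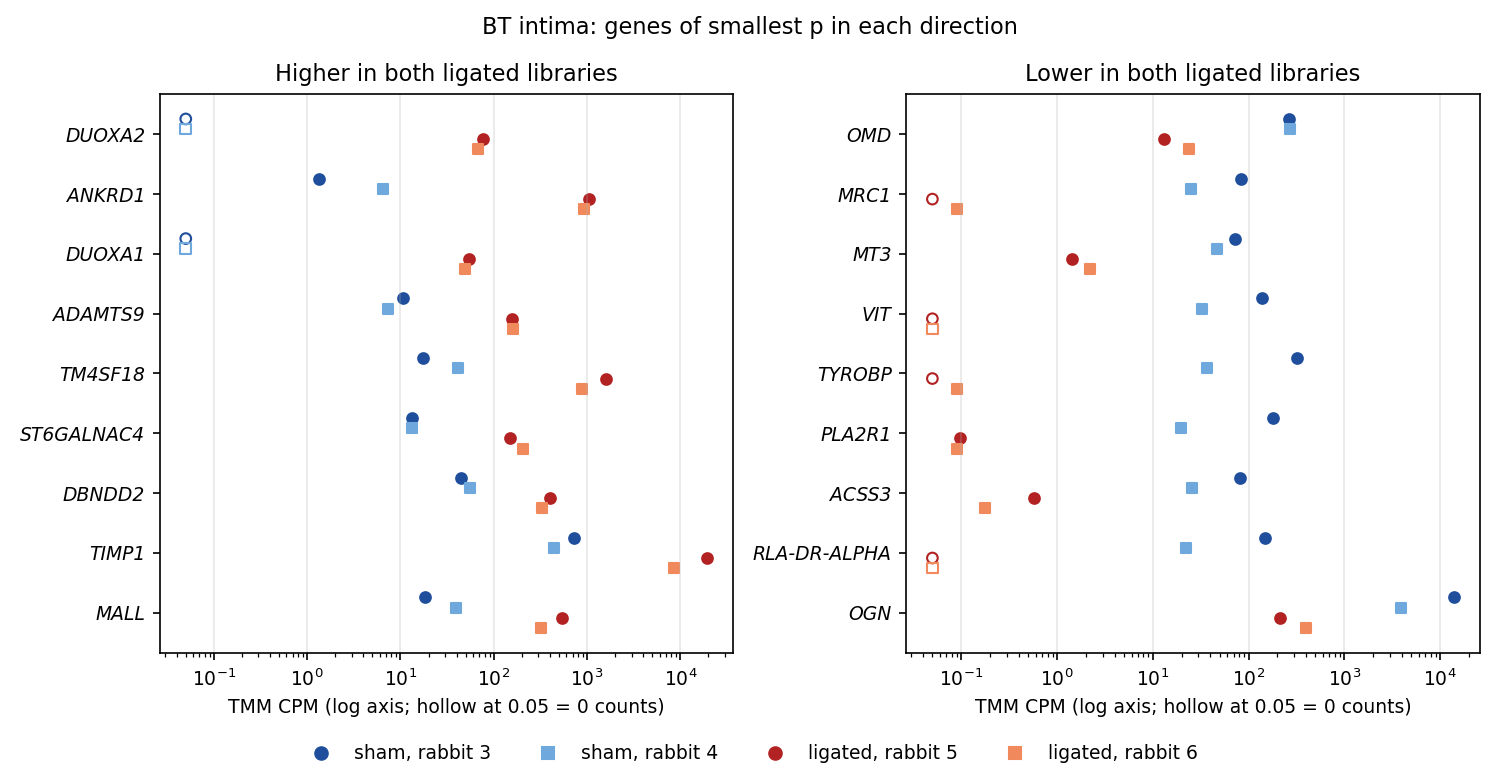
TMM CPM (log axis) in each BT intima library for 9 of the 10 genes with the smallest p on each side among those whose groups do not overlap and whose difference no single library carried; hollow symbols mark 0 counts. For the higher genes the 2 ligated points sit close together well to the right of the sham points, whereas several lower genes, such as TYROBP and PLA2R1, are spread between the 2 sham libraries.

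Genes of fibrinolysis and coagulation gave one of the clearer groupings. Plasminogen activators make plasmin at the cell surface, and PROCR, the endothelial protein C receptor, helps to activate the anticoagulant protein C. PLAT, tissue plasminogen activator, was at 32.6 and 97.6 CPM against 422 and 501 CPM (log2 fold change 2.83 ± 0.61 SE, adjusted p = 0.265). Both of its ligated values lay well above both sham values. PROCR was at 5.29 and 31.2 CPM against 363 and 239 CPM (4.06 ± 0.89 SE, adjusted p = 0.265). PLAUR, the receptor that holds urokinase on the cell, was also higher, at 0.671 and 6.88 CPM against 129 and 97 CPM, whereas urokinase itself, PLAU, overlapped, because sham rabbit 3 was at 461 CPM and sham rabbit 4 at 33.3 CPM. On the other side lay tissue factor, F3, the starter of clotting, at 258 and 19.5 CPM in sham and 0 and 1.7 CPM in ligated libraries, and its inhibitor TFPI, at 495 and 349 CPM against 268 and 137 CPM. F3, TFPI, PLAU and PLAUR were picked after their values were seen. In all, 7 of 14 tested members were higher (50%) and 4 were lower (28.6%), with a median log2 fold change of 1.24, or 2.13 without sham rabbit 3. F3, PLAU and PROS1 were higher in sham rabbit 3 than in sham rabbit 4. In sham rabbit 4, F3 and PROS1 were still above both ligated libraries.

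Ligands that reach neighbouring cells were few but included large ratios. HBEGF, a ligand of the epidermal growth factor receptor and a smooth muscle mitogen, was at 6.19 and 4.8 CPM in sham and 284 and 35.7 CPM in ligated libraries, so the ligated rabbits differed from each other by a wide margin while both lay above sham (4.85 ± 1.05 SE, adjusted p = 0.265). PDGFB, which recruits smooth muscle cells and pericytes, was at 0.82 and 1.6 CPM against 9.44 and 14.6 CPM (adjusted p = 0.405). EREG, a relative of HBEGF, was carried by ligated rabbit 5, at 72 CPM there and 1.16 CPM in ligated rabbit 6, against 1.04 and 0 CPM in sham. SEMA3F, a secreted repellent of endothelial and nerve cells, was at 14.9 and 34.2 CPM in sham and 336 and 198 CPM in ligated libraries (3.45 ± 0.60 SE, adjusted p = 0.247). The semaphorin coreceptor PLXNA2 lay on the same side, at 8.12 and 20.3 CPM against 48.8 and 61.2 CPM. Counted over lists, 5 of 15 EGF and VEGF family genes were higher and 1 was lower, and 8 of 22 semaphorin, ephrin and guidance genes were higher and 4 were lower.

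Cytokines lay on both sides. IL6 had no count in either sham library and 21.6 and 18.2 CPM in the ligated libraries, at least 56.6-fold higher (adjusted p = 0.247). IL15, which sustains lymphocytes, was at 10.1 and 18.6 CPM in sham and 179 and 77.7 CPM in ligated libraries (3.16 ± 0.64 SE, adjusted p = 0.265). CCL2, the main attractant of monocytes, was lower, at 50.8 and 14.4 CPM in sham and 0 and 0.357 CPM in ligated libraries (-7.40 ± 1.61 SE, adjusted p = 0.265). Over the list of 14 tested genes, 4 were higher and 5 lower. CYTL1, a small secreted protein, was among the lower ones, at 6213 and 38031 CPM in sham against 1472 and 1141 CPM in ligated libraries, and it was picked after its values were seen. S100A9, an alarmin of neutrophils that other cells can also make, was at 18.8 and 145 CPM in sham and 972 and 783 CPM in ligated libraries (3.42 ± 0.94 SE, adjusted p = 0.289). Its usual partner S100A8 lay the other way, at 13.1 and 18.9 CPM in sham and 5.88 and 0.982 CPM in ligated libraries. The other neutrophil markers MPO, LTF and MMP8 had no count in any library of either group, so the neutrophil list rested on S100A9 and S100A8.

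Genes of the endothelium itself were mostly higher. TEK, the angiopoietin receptor, was at 88.2 and 111 CPM in sham and 386 and 300.2 CPM in ligated libraries (1.78 ± 0.40 SE, adjusted p = 0.265). CDH5, the cadherin of endothelial junctions, was at 13.9 and 19 CPM against 92.1 and 58.7 CPM (2.20 ± 0.54 SE, adjusted p = 0.279). NOS3, the endothelial nitric oxide synthase, was at 107 and 413 CPM against 1569 and 944 CPM (2.27 ± 0.71 SE, adjusted p = 0.326). For all 3 the lowest value was that of sham rabbit 3, the library with the lowest endothelial sum. Of the 15 tested endothelial markers 8 were higher (53.3%) and 1 was lower (6.67%), with a median log2 fold change of 0.80. That median was 0.17 without sham rabbit 3 and 1.93 without sham rabbit 4, and the part of the endothelial content in these differences was not tested. PECAM1, an adhesion molecule of endothelial junctions, was at 206 and 544 CPM in sham and 905 and 695 CPM in ligated libraries (adjusted p = 0.486). VWF overlapped, at 497 and 2813 CPM in sham and 269 and 729 CPM in ligated libraries. The 1 lower marker was KDR, the main receptor of VEGF, at 17.2 and 6.4 CPM in sham and 0.578 and 0 CPM in ligated libraries, whereas its relative FLT1 was higher, at 10.6 and 57.4 CPM against 267 and 109 CPM. KDR and FLT1 were picked after their values were seen.

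Genes that respond to shear in cultured endothelium were divided. TRPV4, a calcium channel opened by flow, had no sham count and 10.6 and 7.23 CPM in ligated libraries, at least 25.3-fold higher (adjusted p = 0.281). Endothelin-1, EDN1, the vasoconstrictor peptide, was lower, at 129.7 and 396 CPM in sham and 7.52 and 62.5 CPM in ligated libraries (adjusted p = 0.378), and ASS1, which regenerates the arginine used by NOS3, was higher, at 34.9 and 154 CPM against 560.4 and 285 CPM (adjusted p = 0.369). SLC7A11, a cystine transporter of the antioxidant response, was at 297 and 13.9 CPM in sham and had no count after ligation, at least 558-fold lower, and sham rabbit 3 was the higher of the pair by far. EDN1 and ASS1 were picked after their values were seen. The list's 16 tested members held 5 higher and 7 lower genes, and its median log2 fold change was -0.60. Among arterial and adhesion genes, GJA5, the connexin of arterial endothelium, was at 6.71 and 16.8 CPM in sham and 88 and 49 CPM in ligated libraries (2.55 ± 0.69 SE, adjusted p = 0.286). BMX, a kinase of arterial endothelium, was at 67.8 and 312 CPM against 778 and 664 CPM (adjusted p = 0.39). VCAM1, a receptor for leukocytes, was at 714 and 3016 CPM against 8320.1 and 4671 CPM (adjusted p = 0.431). Of the 11 tested genes of endothelial adhesion and activation, 5 were higher and 3 were lower, and the list's median log2 fold change of 0.28 became -0.46 without sham rabbit 3 and 1.23 without sham rabbit 4.

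The ring-shaped chaperonin that folds actin and tubulin lay on the higher side with small ratios. TCP1, one of its subunits, was at 224 and 178 CPM in sham and 529 and 492 CPM in ligated libraries (1.34 ± 0.38 SE, adjusted p = 0.305), and CCT5, another, was at 305 and 259 CPM against 696 and 517 CPM (1.10 ± 0.39 SE, adjusted p = 0.371). Of the 15 tested heat shock and chaperonin genes 10 were higher (66.7%) and 1, BAG3, was lower, with a median log2 fold change of 0.67. That median was 0.83 without sham rabbit 3 and 0.62 without sham rabbit 4. Only 2 of the 10 reached an unadjusted p under 0.05. Of the DNA replication helicase, MCM6 was at 10.2 and 8 CPM in sham and 57 and 54.6 CPM in ligated libraries (2.61 ± 0.56 SE, adjusted p = 0.265) and MCM4 at 3.43 and 6.88 CPM against 26 and 24.5 CPM (adjusted p = 0.389). The cell cycle list as a whole was even, with 6 higher and 6 lower of 18 tested. With a minimum of 5 CPM, 5 were higher and 2 were lower of 9 tested. Basement membrane genes were mixed too. COL4A1, a chain of type IV collagen, was at 65.2 and 55.4 CPM in sham and 139.5 and 205 CPM in ligated libraries (adjusted p = 0.308), and LAMB2, a laminin chain, was lower at 153 and 319 CPM against 44.5 and 75.7 CPM (adjusted p = 0.293).

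The lower genes were led by proteins of connective tissue. Osteoglycin (OGN) and osteomodulin (OMD) are small leucine-rich proteoglycans, which bind collagen fibres and growth factors. OMD was at 263 and 270.4 CPM in the sham libraries and 13 and 23.7 CPM in the ligated ones, the gene of smallest p on this side (log2 fold change -3.86 ± 0.51 SE). The 2 sham libraries lay close together for OMD. OGN was at 13877 and 3947 CPM in sham and 211 and 402 CPM in ligated libraries (-4.86 ± 0.82 SE). VIT, the matrix protein vitrin, was at 137 and 32.5 CPM in sham and had no count in ligated libraries, at least 305-fold lower. In mOryCun1.1 OGN and OMD both lie inside the span of CENPP. Of the 19 tested genes of small leucine-rich proteoglycans and fibre-associated matrix, 13 were lower (68.4%) and 2, FBLN2 and FBN1, were higher. The list's median log2 fold change was -3.29, or -3.16 with the 3 genes at 0 in both ligated libraries set at their bounds.

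Fibroblast and leptomeningeal markers lay almost wholly on the lower side and leaned on sham rabbit 3. None of the 22 tested markers was higher, 16 were lower (72.7%), and 17 had their highest value in sham rabbit 3 (77.3%, against 27.8% of all genes tested). PTN, the growth factor pleiotrophin, was at 3475 CPM in sham rabbit 3 and 45.1 CPM in sham rabbit 4 and had no count in either ligated library, at least 6322-fold lower (adjusted p = 0.265). MFAP5, a protein of elastic microfibrils, was at 163 and 13.6 CPM in sham and had no count in ligated libraries, at least 318-fold lower (adjusted p = 0.247). The bounds for PTN and MFAP5 take the mean of the sham pair, which came mostly from sham rabbit 3. DCN, the proteoglycan decorin, was at 3119.5 and 941 CPM against 0 and 35.1 CPM (-6.85 ± 2.18 SE, adjusted p = 0.336). The median log2 fold change of the list was -4.98, and with the 6 genes at 0 in both ligated libraries at their bounds it did not move. Without sham rabbit 3 it was -3.90, and 17 of the 20 markers tested without it lay below sham rabbit 4 in both ligated libraries, where 39.7% of all genes did. Without sham rabbit 4 it was -5.81. The summed level of the list in the ligated libraries was below that of either sham library, and the part of the tissue's make-up in the values of single matrix genes was not tested.

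Genes of macrophages and of the early complement cascade were mostly lower. MRC1, the mannose receptor of resident macrophages, was at 84.4 and 25.1 CPM in sham and 0 and 0.0893 CPM in ligated libraries, where it had 1 count in all, a ratio of 1182 with a 95% counting interval of 212 to 46694. TYROBP, a signalling adaptor of myeloid cells, was at 319 and 37.1 CPM against 0 and 0.0893 CPM, again with 1 count in the ligated group. RLA-DR-ALPHA, a chain of the MHC class II receptor, was at 149.9 and 22.1 CPM in sham and had no count in ligated libraries, at least 309-fold lower. For these 3 genes both sham libraries were above both ligated ones and rabbit 3 was the higher of the sham pair. C1QC, a chain of the first complement component, was at 226 and 12.3 CPM against 0 and 0.536 CPM (-8.70 ± 1.91 SE, adjusted p = 0.265), and C2, a complement protease, was at 62.2 and 11.7 CPM in sham and had no count after ligation, at least 133-fold lower (adjusted p = 0.247). CD59, which shields cells from complement, was the 1 higher gene of the complement list, at 16.2 and 16.6 CPM against 95.4 and 68.7 CPM (2.32 ± 0.51 SE, adjusted p = 0.265), while 6 of its 8 tested genes were lower. C1R and SERPING1 were among those 6 with sham rabbit 4 as the higher sham library, and both were picked after their values were seen.

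Of 15 tested macrophage markers 11 were lower (73.3%) and 1 was higher, and 12 had their highest value in sham rabbit 3 (80%). The median log2 fold change was -8.01, -3.81 with 4 genes at their bounds, and -3.21 without sham rabbit 3. The summed marker level was 1498 CPM in sham rabbit 3 but 313 CPM in sham rabbit 4, against 345 and 190.0 CPM in the ligated libraries, so the sums of sham rabbit 4 and ligated rabbit 5 were close. In the ligated libraries that sum came mostly from CD14, LYVE1, LGMN, a lysosomal protease of many cell types, and, in rabbit 5, the scavenger receptor MSR1. CD14, a receptor for bacterial lipopolysaccharide, was at 62.8 and 64.3 CPM in sham and 135 and 59.3 CPM in ligated libraries and overlapped. LYVE1, a hyaluronan receptor of lymphatic endothelium and some macrophages, was the 1 higher marker, at 1.57 and 0.8 CPM against 71.4 and 11 CPM (adjusted p = 0.265), and, like LGMN and MSR1, it was picked after its values were seen. C1QA, CD163, CSF1R and CX3CR1, which were picked after their values were seen, had no count in either ligated library. In sham rabbits 3 and 4, C1QA was at 134 and 2.4 CPM and CD163 at 6.04 and 1.76 CPM. CSF1R was at 2.31 and 0.64 CPM, and CX3CR1 was at 8.64 and 0 CPM and so overlapped.

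Interferon-stimulated genes also lay lower, but here sham rabbit 4 was the high library. These genes are switched on by interferons as a defence against viruses. IFI44L was at 79.1 and 218 CPM in sham rabbits 3 and 4 and 10.7 and 9.82 CPM in ligated libraries (-3.85 ± 0.65 SE, adjusted p = 0.247). CXCL10, a chemokine that attracts T cells, was at 14.1 and 57.1 CPM in sham and had no count in ligated libraries, at least 128-fold lower (adjusted p = 0.247). ISG15, a ubiquitin-like protein, was at 205 and 584 CPM against 22.2 and 47.2 CPM (-3.51 ± 0.70 SE, adjusted p = 0.256). For each of these 3 genes sham rabbit 4 was above sham rabbit 3 and both were above the ligated pair. Of the 23 tested members 15 were lower (65.2%) and none was higher, and 19 had their highest value in sham rabbit 4. The median log2 fold change was -2.16, -1.83 without sham rabbit 3 and -1.47 without sham rabbit 4, so the list lay lower against either sham rabbit alone. Both ligated values were below sham rabbit 4 for 21 of the 23 members tested without sham rabbit 3, where 39.7% of all genes were, and below sham rabbit 3 for 18 of the 24 members tested without sham rabbit 4, where 43.3% of all genes were.

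Immediate early genes, which cells switch on within minutes of a stimulus and of tissue handling alike, were lower for 8 of 17 tested members (47.1%) and higher for 3. JUN, a subunit of the AP-1 transcription factor, was at 20.5 and 57.3 CPM in sham and 0.578 and 1.52 CPM in ligated libraries (-5.19 ± 1.03 SE, adjusted p = 0.256). NR4A1, an orphan nuclear receptor, was at 51.8 and 150.4 CPM against 16.3 and 11.8 CPM (-2.85 ± 0.67 SE, adjusted p = 0.27). BTG2, a brake on cell division, was at 882 and 566 CPM against 108 and 196 CPM (-2.25 ± 0.49 SE, adjusted p = 0.265). These did not share 1 high sham library. Sham rabbit 4 was above rabbit 3 for JUN and NR4A1 and below it for BTG2. FOS, the partner of JUN, was at 969.6 and 911 CPM against 552 and 306 CPM (adjusted p = 0.405), and EGR1 overlapped, at 6.93 and 11.5 CPM in sham and 12.7 and 5.18 CPM in ligated libraries. FOS and EGR1 were picked after their values were seen. The list's median log2 fold change was -0.22, near the -0.13 over all genes tested, and -0.46 without sham rabbit 3 or -0.42 without sham rabbit 4.

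**Figure D3:**
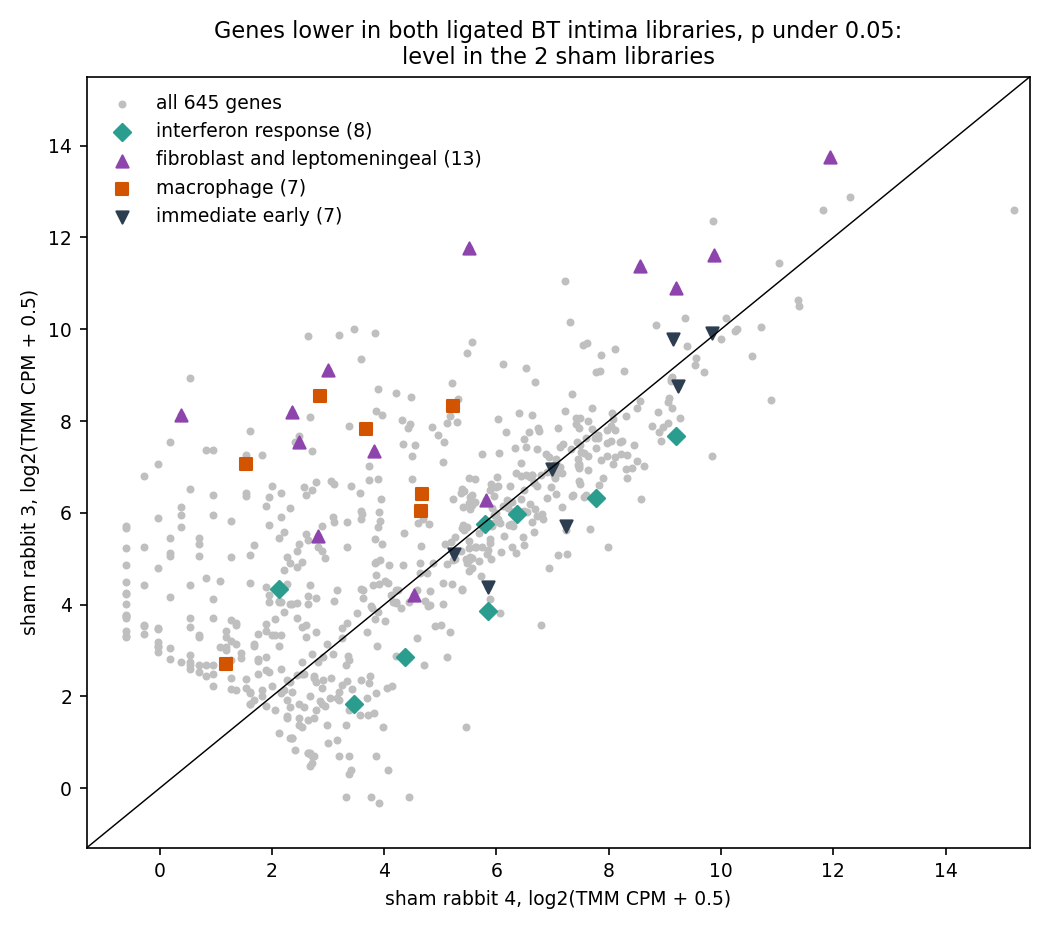
Level in sham rabbit 3 against sham rabbit 4, as log2(TMM CPM + 0.5), for the 645 genes that were lower in both ligated BT intima libraries with an unadjusted p under 0.05; coloured symbols mark 4 lists and the line marks equal levels. Of the coloured points, 12 of 13 fibroblast and leptomeningeal genes and 7 of 7 macrophage genes lie above the line, 7 of 8 interferon genes lie below it, and the immediate early genes lie on both sides.

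Among growth factors on the lower side, BMP3, a bone morphogenetic protein, was at 9.09 and 8.96 CPM in sham and had no count in ligated libraries, at least 32.4-fold lower (adjusted p = 0.281). TGFBR3, the coreceptor betaglycan, was at 568 and 91.4 CPM against 12.1 and 16.7 CPM (-4.51 ± 0.93 SE, adjusted p = 0.265). BMP2 lay the other way, at 4.84 and 11.4 CPM in sham and 146 and 25.7 CPM in ligated libraries (adjusted p = 0.304), and was carried by ligated rabbit 5. The direct target genes ID1 and ID3, picked after their values were seen, overlapped between groups, and the list held 2 higher and 5 lower of 20 tested. IGF1, insulin-like growth factor 1, was at 101 and 6.4 CPM in sham and 0 and 0.268 CPM in ligated libraries, where it had 3 counts in all, a ratio of 385 with a 95% counting interval of 132 to 1868 (adjusted p = 0.265). MT3, a metal-binding metallothionein, was at 72 and 46.7 CPM against 1.45 and 2.23 CPM (32.3-fold). PLA2R1, a receptor for secreted phospholipase A2, was at 179 and 19.7 CPM against 0.0964 and 0.0893 CPM, with 2 counts in the ligated group and a ratio of 1074 (95% counting interval 297 to 8872). ACSS3, a mitochondrial acyl-CoA synthetase, was at 81.5 and 25.4 CPM against 0.578 and 0.179 CPM (-7.11 ± 1.09 SE). For both of these, too, sham rabbit 3 was the higher sham library.

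How much of the lower side rested on 1 sham library was then counted. A gene was taken as carried by a library if leaving it out brought the log2 ratio of mean CPM (each + 0.5 CPM) to under 50% of its value. Of the 2368 lower genes, 295 were carried by sham rabbit 3 (12.5%, or 3.18% of all genes tested), 233 by sham rabbit 4 (9.84%, or 2.51% of those tested), 166 by ligated rabbit 5 (1.79% of those tested), 70 by ligated rabbit 6 (0.755%) and 1604 by none (67.7%). Of the 1895 higher genes, 94 were carried by sham rabbit 3 (1.01% of those tested), 142 by sham rabbit 4 (1.53%), 150 by ligated rabbit 5 (1.62%) and 107 by ligated rabbit 6 (1.15%). Of the 645 lower genes with an unadjusted p under 0.05, 114 were carried by sham rabbit 3 (17.7%), 21 by sham rabbit 4 (3.26%) and none by a ligated library, and 375 had their highest value in sham rabbit 3 (58.1%). On the higher side, none of the 395 genes with an unadjusted p under 0.05 was carried by a sham library, 10 were carried by ligated rabbit 5 and 2 by ligated rabbit 6. The definition does not treat both groups alike. Leaving out a library of the group with the lower mean can shrink a ratio of means only by a limited factor, so genes with large ratios cannot be carried by it, and the zeros here follow largely from that. By the other definition, over 90% of the sham CPM in 1 library, sham rabbit 3 held 165 of the 2368 lower and 76 of the 1895 higher genes, and sham rabbit 4 held 34 and 27.

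The carried genes of smallest p were named. PROS1, the anticoagulant protein S, was at 651 CPM in sham rabbit 3 and 11.5 CPM in sham rabbit 4 and had no count in either ligated library (adjusted p = 0.265). SCD5, a fatty acid desaturase, was at 969 and 13.8 CPM in sham and at 0 in both ligated libraries (adjusted p = 0.265). SLC6A13, a GABA transporter of the leptomeninges, was at 186 and 5.12 CPM and again at 0 after ligation (adjusted p = 0.265). In all 3 the value of sham rabbit 4 was far below that of sham rabbit 3 and still above the ligated values. DPP4, a cell surface peptidase, was at 163 and 6.08 CPM against 0 and 0.0893 CPM. TTR and KCNJ13 of the choroid plexus list were also carried by sham rabbit 3. TTR, transthyretin, was at 110.4 CPM in sham rabbit 3, 0.32 CPM in sham rabbit 4 and 0 in both ligated libraries, and KCNJ13, a potassium channel, was at 937 and 8.64 CPM in sham and 0 and 7.94 CPM in ligated libraries. On the higher side, POLK, a DNA polymerase, STEAP2, a metal reductase, and PTGER4, a prostaglandin receptor, were carried by ligated rabbit 5, and TNC, the matrix protein tenascin C, by ligated rabbit 6. TNC was at 527 and 425 CPM in sham, 926 CPM in ligated rabbit 5 and 3350.2 CPM in ligated rabbit 6 (adjusted p = 0.323).

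**Figure D4:**
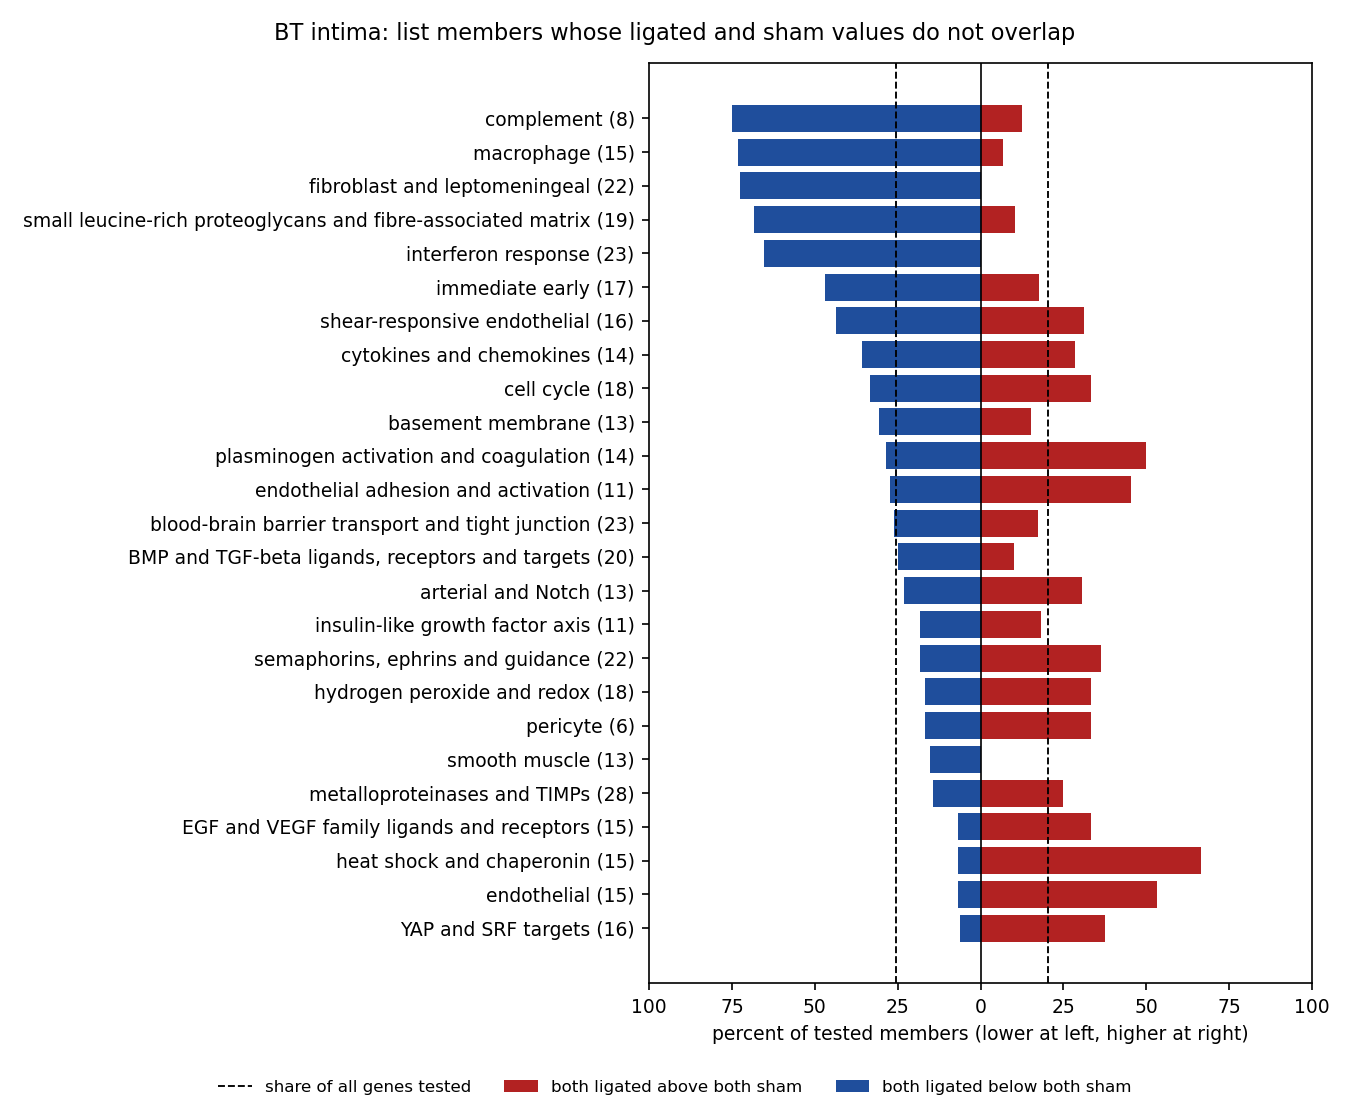
Percent of the tested members of each list whose 2 ligated values both lay below (left, blue) or both above (right, red) the 2 sham values in BT intima, for lists with at least 6 tested members; dashed lines mark the shares of all genes tested, 25.5% and 20.4%. The longest bars to the left are complement, macrophage, fibroblast and leptomeningeal, small leucine-rich proteoglycan and interferon genes, and the longest to the right is the heat shock and chaperonin list.

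The contractile genes of smooth muscle gave little difference. None of the 13 tested markers was higher and 2, MYH11 and SYNPO2, were lower, or 4 when the libraries were scaled by relative log expression (RLE). MYH11, the smooth muscle myosin heavy chain, was at 460.0 and 437 CPM in sham, 118 CPM in ligated rabbit 5 and 432 CPM in ligated rabbit 6 (adjusted p = 0.69), so the difference was carried by ligated rabbit 5. ACTA2, smooth muscle actin, overlapped at 20552 and 20495 CPM in sham and 11436 and 49081 CPM in ligated libraries. The ligated pair thus stood on both sides of the sham pair for ACTA2 and for the summed marker level, which is mostly ACTA2. Ligated rabbit 5 was below both sham libraries for 12 of the 13 markers, and ligated rabbit 6 was above both for 5 of the 13. Of pericyte genes, ABCC9, a potassium channel regulator, was higher, at 10.2 and 12.3 CPM against 73.3 and 126 CPM (3.15 ± 0.55 SE, adjusted p = 0.247), while RGS5, the usual pericyte marker, was lower at 85.9 and 67.7 CPM against 12.5 and 49.8 CPM (adjusted p = 0.502) and was carried by ligated rabbit 5. ACTA2 was picked after its values were seen. For the blood-brain barrier and tight junction list, 4 of 23 members were higher and 6 were lower, and for the arterial and Notch list, 4 of 13 were higher and 3 were lower. Neuronal, astrocytic and oligodendrocyte markers summed to at most 31.2 CPM in any library.

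The straight basilar artery of the same rabbits was the nearest comparison. The question was whether the difference with ligation at the terminus departed from that in the straight segment, tested as a location by ligation interaction over the 8 intimal libraries. No gene passed an adjusted p of 0.05 (0% of 9641 tested, 301 or 3.12% at an unadjusted p under 0.05). With rabbit as a block, since both segments came from the same animals, none passed either, with a smallest adjusted p of 0.0576 and 332 genes (3.44%) at an unadjusted p under 0.05. DESeq2 called 47 genes. Of the 10 leading higher genes at the terminus, 9 had both ligated BA values above both sham BA values, where 14.8% of all genes tested did, and of the 10 leading lower genes 3 had both below, where 19.1% did. These genes were picked on their BT values, so the BT side is the more extreme by choice.

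ANKRD1 was at 6.54 and 0.234 CPM in sham and 2440.4 and 935 CPM in ligated BA intima, with a difference of log2 fold changes, BT minus BA, of -0.96 ± 1.51 SE. TIMP1 was at 487 and 364 CPM against 5090.2 and 6364 CPM there (difference 0.80 ± 0.70 SE). DUOXA2 was at 0 and 0.0781 CPM in sham and 30.8 and 26.8 CPM in ligated BA intima, so these 3 leading genes were higher in both segments. IL6 was at 0 in both sham libraries, 0 CPM in ligated rabbit 5 and 45.9 CPM in ligated rabbit 6 there. HBEGF was one of the genes that stood further apart, at 13.7 and 7.81 CPM in sham and 32.8 and 12.8 CPM in ligated BA intima (difference 3.74 ± 1.26 SE). ISG15 was at 161 and 355 CPM in sham and 127 and 399.8 CPM in ligated BA intima, so it overlapped there (difference -3.56 ± 1.03 SE, adjusted p = 0.272 with the block). CXCL10 was at 10.5 and 42.2 CPM in sham BA intima, 0.683 CPM in ligated rabbit 5 and 575 CPM in ligated rabbit 6, whose BT intima had none (adjusted p = 0.0576 for the difference with the block). Over the interferon list the median log2 fold change was 0.03 in BA intima, among members tested at both locations, against -2.16 at the terminus. VIT, without a count in the ligated terminus, was at 20.7 and 1.64 CPM in sham and 60.7 and 0 CPM in ligated BA intima (adjusted p = 0.272 for the difference with the block). SCD5 was at 66.3 and 4.69 CPM in sham and 66.2 and 1.08 CPM in ligated BA intima. Among members tested at both locations, the endothelial list had a median log2 fold change of 0.14 in BA intima. The fibroblast and leptomeningeal list had one of -2.22 there.

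**Figure D5:**
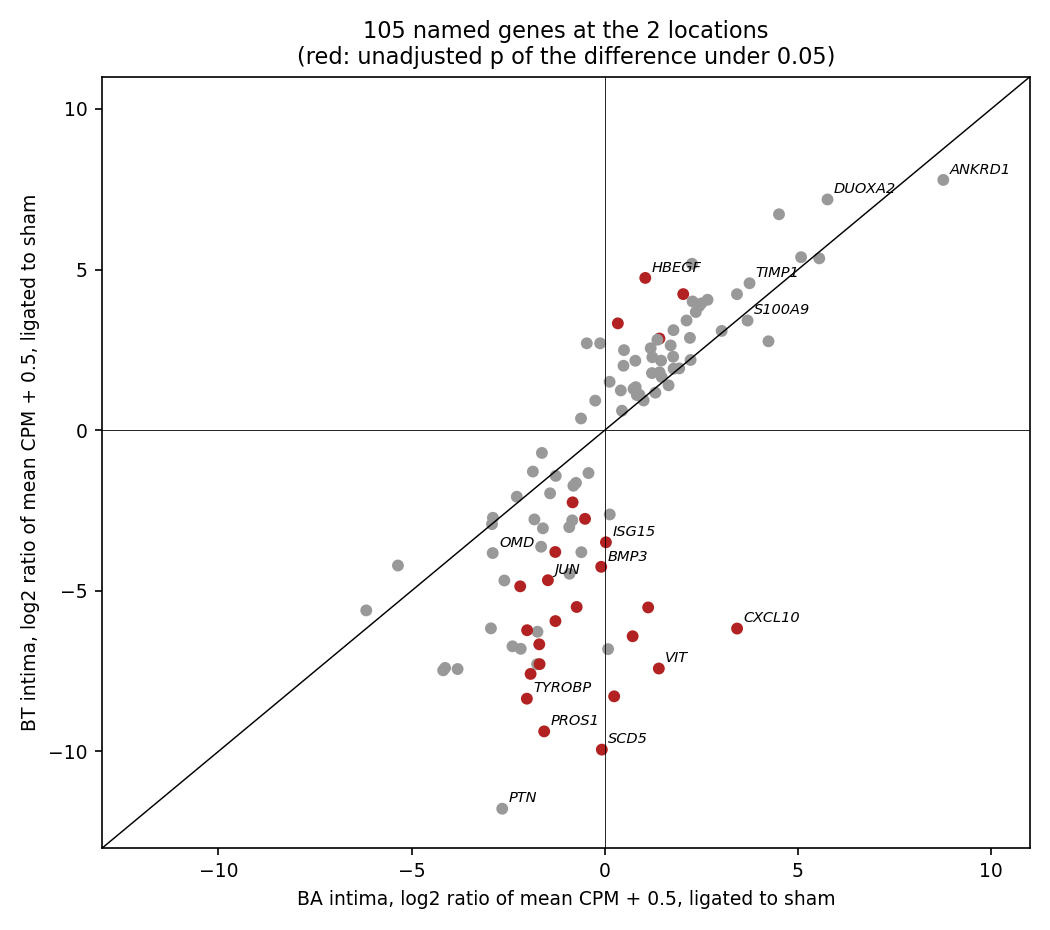
Log2 ratio of mean TMM CPM (+ 0.5) in ligated to sham rabbits at BT (vertical) and in BA intima (horizontal) for 105 of the genes named by rule; the line marks equal ratios, and red marks an unadjusted p under 0.05 for the difference between locations, which no gene passed after adjustment. The 25 red genes all have the log2 ratio of larger size at BT, the location whose values chose the genes, and CXCL10 and VIT lie on opposite sides of 0 at the 2 locations.

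The media beneath the same intima was compared in the same way. A layer by ligation interaction over the 8 BT libraries gave no gene at an adjusted p of 0.05 (0% of 9624 tested, 570 or 5.92% at an unadjusted p under 0.05), none with rabbit as a block (smallest adjusted p 0.078, 466 genes or 4.84% at an unadjusted p under 0.05), and 80 genes with DESeq2. All 10 leading higher genes of the intima had both ligated media values above both sham media values, where 24% of all genes tested did, as did 6 of the 10 leading lower genes in the opposite direction, where 21.4% did. ANKRD1 was at 4.83 and 13.7 CPM in sham and 1594 and 926 CPM in ligated media. IL6 was at 2.41 and 0 CPM against 79.4 and 119 CPM in the media, again higher in both ligated libraries. TYROBP was at 29.2 and 11.7 CPM in sham and 17.2 and 48.3 CPM in ligated media, so this myeloid gene, at 0 or 1 count in the ligated intima, was present in the media of the same rabbits (adjusted p = 0.078 for the difference with the block). OGN was lower in the ligated media too, at 7686 and 10975 CPM in sham against 1352 and 1423 CPM. Among markers tested in both the BT intima and the media, the median log2 fold change in the media was 0.65 for macrophages. For fibroblast and leptomeningeal markers it was -1.10.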

How the data were processed

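Reads came from laser-dissected rabbit intima and media, amplified with SMART-Seq v4, made into Nextera libraries and sequenced as 75-cycle single reads. Per the labels and the study's methods, the authors used bcl2fastq 2.20.0.422, FastQC 0.11.5, MultiQC 1.5, STAR on OryCun2.0, SAMtools 1.9 and featureCounts 1.6.2, kept uniquely mapped reads, and deposited 1 table of raw counts per gene symbol for 16 libraries. No molecular identifiers were used, and the kit does not mark strand. The study states that featureCounts was set to exons and to reverse-stranded reads, and the effect of these settings on the counts was not tested. Rows without a symbol (17.2% to 18.7% of counts in the 4 BT intima libraries) were left out, and 22 symbols turned into dates by a spreadsheet were not read as genes. Of 13788 symbols 12688 matched RefSeq mOryCun1.1, which was used only for names and for which genes overlap.

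Counts were tested in R 4.3.3 with edgeR 4.0.16 (quasi-likelihood F test, legacy form, TMM, Benjamini-Hochberg), for genes with a mean above 1 CPM in at least 1 group. The study states its filter in RPKM, which needs gene lengths that were not used here. DESeq2 1.42.0, other filters, scalings and fits, and leaving out each library were alternatives. The scripts were tested on simulated counts before use. Replicate libraries were not duplicates: their counts differed far beyond sampling noise (chi-square per degree of freedom 364 for sham, 184 for ligated). The ligated and sham rabbits are different animals, so the main comparison has no pairing. The labels give the intima and media of BA and BT the same rabbits, which pairs the interactions. Deviations of same-rabbit libraries correlated at 0.413 (sham) and 0.0742 (ligated) between locations, and at 0.0705 and 0.0161 between layers.

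The members and lists were chosen with earlier results of these data known: 13 cell type marker lists and 20 gene lists with 613 genes, of which 418 were tested, the rest having no row under that symbol or lying below the filter. Genes were named by rule: the 10 smallest p on each side among genes without overlap and carried by no library, the 5 smallest on each side among carried genes, up to 3 per list, and the first marker of each cell type with PECAM1, CDH5 and VWF. This gave 111 genes, of which the text describes a part and some are not reported here; genes named beyond it are marked in the text or are list members named as the exceptions to a count. Lists were described by counts and medians, with no set test. Figures were drawn with matplotlib 3.10.9 in Python 3.11.15.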

Additional observations from a re-analysis of the deposited data

How the results depend on the processing

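With 2 rabbits per group, the number of genes past an adjusted p of 0.05 was 0 in edgeR's quasi-likelihood test under each scaling. In the same test it was 346 with every gene that had a count, and 77 when fitted over all 16 libraries. It was 295 in edgeR's exact test and 613 in DESeq2. It stayed at 0 in the quasi-likelihood test with edgeR's own expression filter, with a minimum of 5 CPM and when fitted over the 8 intimal libraries. It was also 0 in the version 4 form of that test. The number thus moved with the exact test and DESeq2, with dropping the filter and with fitting all 16 libraries, but not with the scaling. The cause was not tested. Leaving out 1 library gave 0 to 116 such genes, with 2 without sham rabbit 3 and 116 without sham rabbit 4. Counts of genes without overlap were 2733 to 3192 higher and 3374 to 4048 lower with 1 library left out, where fewer values had to be cleared by construction. With a library taken to carry a gene if it held over 90% of its group's CPM, sham rabbit 3 carried 165 and sham rabbit 4 carried 34 of the lower genes. By the 50% definition used above these were 295 and 233, so the fall was larger for sham rabbit 4. The cause of that unequal fall was not tested.

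The interactions could be paired, since rabbits gave both tissues. With the replicate block, 0 genes passed for location and 0 for layer, the same as without it. DESeq2 called 47 genes for location and 80 for layer, and leaving out 1 rabbit gave 0 to 30 for layer, with 30 without rabbit 4 and 1 without rabbit 6. The cause was not tested. No paired analysis was possible for ligated against sham BT intima because these are different rabbits.

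Of the genes named by rule, 107 were tested, and none of their 1169 values under alternatives other than leaving out a library changed direction. Of 425 values with 1 library left out, 2 did: CD14 ranged from -0.101 without ligated rabbit 5 to 1.06 (log2 fold change), and CD3E from -0.065 without sham rabbit 4 to 6.447. Leaving out HBB2, and counting overlap with 1 library left out, were chosen after seeing the data. A count of 0 at these depths limits what low genes can show.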

Other observations

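Some members of lists counted above were not yet given by value in BT intima. Among cell junction and barrier genes, F11R (JAM-A) was at 52.8 and 80.3 CPM in sham and 176 and 151 CPM in ligated libraries (log2 fold change 1.29 ± 0.44 SE, adjusted p = 0.352). JAM2, its relative, was at 63.3 and 48.2 CPM against 139.7 and 156 CPM (1.41 ± 0.43 SE). TFRC, the transferrin receptor, was at 161 and 124 CPM against 380.1 and 262 CPM. These lay on the higher side with close replicates. Occludin (OCLN) and the glucose transporter SLC2A1 lay on the other side and were carried by sham rabbit 4, with SLC2A1 at 151 and 911 CPM in sham and 128 and 76.2 CPM in ligated libraries. IGFBP6, an insulin-like growth factor binding protein, was lower at 1904 and 589 CPM against 166 and 201 CPM, whereas IGFBP4 was higher at 56.6 and 100.3 CPM against 122 and 249.9 CPM. OCLN and SLC2A1 were picked after their values were seen.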
